A study of Mus musculus with 8 samples.

Results

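The comparison set the brains of restraint-stressed mice with cerebral amyloid angiopathy (CAA) against the brains of mock-treated mice with CAA. In CAA, amyloid-beta peptide collects within the walls of blood vessels of the brain. The members were all expressed genes in 4 of the series' 8 libraries: the groups CAA stress and CAA mock, with 2 libraries each, taken from the columns of the deposited gene count table. Of 54532 genes in the table, 25086 had no count in any library, and 17182 had enough counts to be tested, holding 99.9% of all counts. WT stress and WT mock, again 2 libraries each, shared the fit. The labels give the disease state (CAA or WT), the treatment (chronic restraint stress or mock) and the tissue (brain of mice perfused with PBS). Both CAA groups carry whatever gives the mice CAA. The strain or transgene behind it, the promoter that drives it, and the animals' age and sex are absent from the labels, as is the part of the brain extracted. The study asked what chronic stress does to CAA and to the release of neutrophil extracellular traps, in which chromatin and granule proteins leave the cell together. Libraries are called by group and replicate number, as in CAA stress 1. Whether replicates were separate animals is not stated. By the sex-linked counts given below, CAA stress 1 and 2 differed in sex, as did WT mock 1 and 2, so these pairs did not share an animal. For CAA mock and WT stress this is not known. The p-values therefore measure the spread between these samples alone, which may in part be technical.

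Restraint stress activates the hypothalamic-pituitary-adrenal axis, in which corticotropin-releasing hormone leads to the release of glucocorticoids from the adrenal gland. In brain cells glucocorticoids bind the receptors encoded by Nr3c1 and Nr3c2, which switch on genes such as Fkbp5, Sgk1, Tsc22d3 and Per1. In vessels with CAA the amyloid lies in the basement membrane and among smooth muscle cells, and microglia and astrocytes near amyloid change the set of genes they express.

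No gene passed the test for stress in CAA brains. Of 17182 genes, 0 (0%) had an edgeR adjusted p under 0.05, and the smallest edgeR adjusted p was 0.696. At an unadjusted edgeR p under 0.05 there were 1193 genes (6.94% of those tested, where chance gives 859.1), of which 632 (3.68%) lay higher in CAA stress and 561 (3.27%) lower. DESeq2, the other count tool run, called 14 genes (0.0802% of the 17450 genes to which it gave an adjusted p), 6 higher and 8 lower. Without the filter on low counts edgeR called 112 genes, 70 higher and 42 lower. Among them were Nr4a2, Dcn and Ide, which the filter keeps. Their log2 fold changes of -1.37, -1.60 and -1.07 were nearly the same with the filter, so for them only the p-values changed. Why these changed was not tested. Fold changes were centred near 0: 8828 genes (51.4%) lay higher in CAA stress and 8354 (48.6%) lower. The median log2 fold change was 0.01, with quartiles of -0.22 and 0.24. Among the 14954 genes with a mean of at least 1 CPM (TMM-normalised counts scaled to a common library size) the 95% confidence interval of the log2 fold change reached 0.49 to either side at the median gene.

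Both CAA stress libraries lay above both CAA mock libraries in 3149 genes (18.3%) and below both in 3262 genes (19%); this is what is meant below by a gene whose groups did not overlap. Among genes with a mean of at least 1 CPM, 139 of the higher and 98 of the lower ones also differed over 2-fold. CAA stress 1 and CAA stress 2 differed from each other by a median of 0.256 on the log2 scale over the 14954 genes, and CAA mock 1 from CAA mock 2 by 0.253. The differences between the groups ran from 0.180 for CAA stress 1 against CAA mock 1 to 0.363 for CAA stress 2 against CAA mock 2. The closest pair of libraries thus came from different groups.

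The libraries held 17909935 to 18292886 counts in CAA stress and 17275201 to 17657775 in CAA mock. Xist, the RNA of X inactivation in females, had 3340 and 2 counts in CAA stress 1 and 2, against 0 and 0 in CAA mock. Ddx3y, Eif2s3y, Kdm5d and Uty, 4 genes of the Y chromosome, together had 0 and 2340 counts in CAA stress 1 and 2, against 2260 and 2685 in CAA mock 1 and 2. CAA stress 1 was therefore female by these counts and the other 3 libraries male. Genes of the mitochondrial genome and its ribosomal and transfer RNAs took 7.89% and 6.10% of the counts of CAA stress 1 and 2, against 8.30% and 9.99% in CAA mock 1 and 2. The neuronal gene Snap25 was at 1667 and 1949 CPM in CAA stress, against 1697 and 1986 CPM in CAA mock, so its high level was shared by the groups.

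Markers of brain regions and cell types differed between replicates of each group. Levels are log2 values, relative to the 8-library mean of each marker and averaged over its list. The 14 striatal markers lay at 0.86 and 0.09 in CAA stress 1 and 2, against 0.66 and -1.94 in CAA mock 1 and 2. The 16 choroid plexus markers lay at 1.67 and -0.94, against 0.62 and -0.93. For both lists the libraries of CAA mock lay further apart than the group means. The 10 olfactory bulb markers lay at -0.96 and 1.02 in CAA stress, against -1.38 and -1.19 in CAA mock, so that CAA stress 2 stood apart. The 15 myelin markers lay at 0.46 and -0.62, against 0.09 and 0.78. In bulk RNA, fewer cells of a type and less RNA per cell cannot be told apart.

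**Figure D1:**
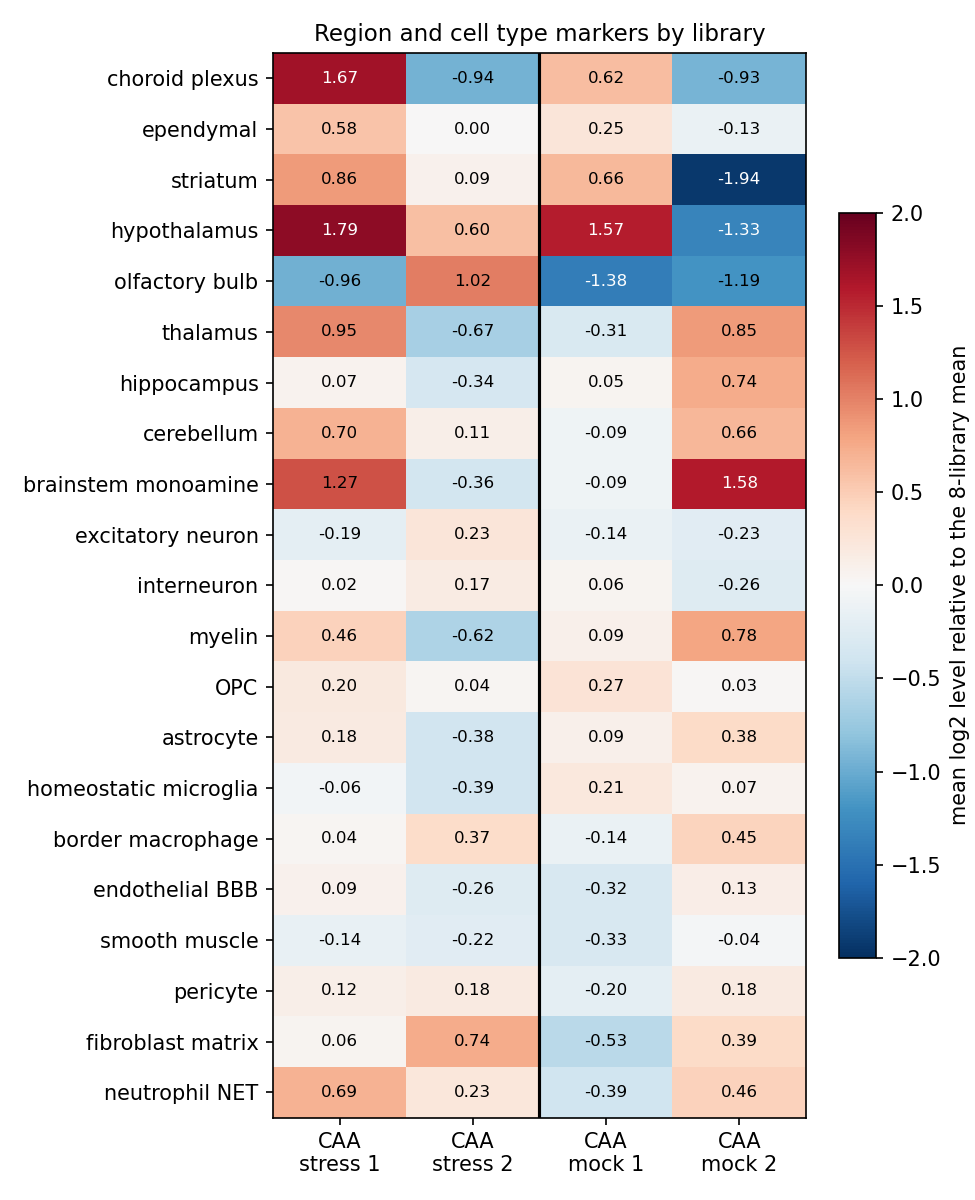
Mean log2 level of marker lists (rows) in the 2 CAA stress and 2 CAA mock libraries (columns), each gene centred on its mean over the 8 libraries; red is above and blue below that mean. CAA mock 2 stands apart in striatal (-1.94) and hypothalamic (-1.33) markers, CAA stress 2 in olfactory bulb markers (1.02) and CAA stress 1 in choroid plexus markers (1.67). OPC stands for oligodendrocyte precursor cells.

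By the smallest unadjusted p, the genes that lay highest in CAA stress were Serpinb8, Plec, Entpd4b, Adgra2, Kcnt1 and Tspoap1, none of which passed in edgeR. Serpinb8 encodes an inhibitor of serine proteases (ENSMUSG00000026315, mm10, chr1:107590006-107610484, plus strand). It had 5.94 and 8.95 CPM in CAA stress libraries, against 2.39 and 2.42 CPM in CAA mock libraries. Its log2 fold change was 1.63 ± 0.33 (SE, edgeR adjusted p = 0.696, DESeq2 adjusted p = 0.0423). WT brains, at 11.5 and 7.11 CPM of Serpinb8 under stress, against 8.28 and 10.4 CPM under mock, lay nearer to CAA stress than to CAA mock. Plec encodes plectin, a large linker between intermediate filaments and other parts of the cytoskeleton (ENSMUSG00000022565, mm10, chr15:76170974-76232574, minus strand). It had 130.8 and 192.8 CPM in CAA stress, against 89.6 and 80.0 CPM in CAA mock (log2 fold change 0.93 ± 0.20, adjusted p = 0.696 in edgeR and 0.0308 in DESeq2). The groups did not overlap in either gene, and for Plec the CAA stress libraries lay further apart than the nearest libraries of the groups did.

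Adgra2, an adhesion receptor of brain endothelium needed for vessel growth in the brain, had 15.5 and 18.5 CPM in CAA stress, against 8.002 and 9.24 CPM in CAA mock (log2 fold change 0.98 ± 0.21). Kcnt1, a potassium channel opened by sodium, had 75.2 and 95.95 CPM in CAA stress, against 53.7 and 48.7 CPM in CAA mock (0.74 ± 0.16). Tspoap1, a presynaptic protein that binds RIM at the active zone, had 189 and 184 CPM in CAA stress, against 112 and 90.8 CPM in CAA mock (0.88 ± 0.20, DESeq2 adjusted p = 0.0486). The edgeR adjusted p was 0.696 for each of these genes. In Adgra2 and Tspoap1 the CAA stress libraries lay close together and away from CAA mock. Adgra2 shares 73 bases with Brf2 on the opposite strand, and the sources do not say whether the counting used strand.

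Entpd4b is a near-identical copy of Entpd4, a nucleotide diphosphatase of the Golgi, so its reads may be split between the copies and its value is uncertain. It had 147 and 49 counts in CAA stress, against 12 and 16 counts in CAA mock. Its log2 fold change was 2.72 ± 0.56 (edgeR adjusted p = 0.696, DESeq2 adjusted p = 0.0144). It also lay higher in WT stress than in WT mock, by 2.28 ± 0.52. The groups did not overlap in CAA or in WT brains. DESeq2 also called 2 higher genes outside this set, chosen after their values were seen. Mrc2, a receptor that takes up collagen, had 8.94 and 22.7 CPM in CAA stress, against 3.27 and 5.01 CPM in CAA mock (1.93 ± 0.47, edgeR adjusted p = 0.696, DESeq2 adjusted p = 0.0308); without CAA stress 2 its log2 fold change was 1.11. Ryr1, a calcium release channel best known from skeletal muscle, had 7.74 and 10.7 CPM in CAA stress, against 3.97 and 1.803 CPM in CAA mock (1.67 ± 0.38, edgeR adjusted p = 0.696, DESeq2 adjusted p = 0.0493).

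Nr4a2 had the smallest p of all genes, and its RNA lay lower in CAA stress. It encodes Nurr1, an orphan nuclear receptor that neurons induce with activity and that dopamine neurons need. Nr4a2 (ENSMUSG00000026826, mm10, chr2:57106830-57124003, minus strand) had 19.3 and 17.8 CPM in CAA stress libraries, against 46.7 and 48.8 CPM in CAA mock libraries. Its log2 fold change was -1.36 ± 0.23, with a 95% confidence interval from -1.87 to -0.86 (edgeR quasi-likelihood test, unadjusted p = 8.89e-05, edgeR adjusted p = 0.696, DESeq2 adjusted p = 0.000974). Within each group the libraries differed by far less than the groups did. In WT brains the libraries overlapped, with 34.3 and 25.6 CPM in WT stress, against 48.3 and 30.5 CPM in WT mock (log2 fold change -0.39 ± 0.22). The difference between the CAA and WT effects did not pass (edgeR adjusted p = 0.995).

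The promoter of Nr4a2 is shown because this gene had the smallest p in the comparison and is known as a target of CREB, a factor switched on by cyclic AMP. Its 300 bases run from 250 before to 50 after the start of the gene, at chr2:57123954-57124253 on the minus strand, from RefSeq on the GRCm38.p6 build. Capitals mark the CREB core motif TGACG and its reverse CGTCA, searched on both strands.
Nr4a2 promoter: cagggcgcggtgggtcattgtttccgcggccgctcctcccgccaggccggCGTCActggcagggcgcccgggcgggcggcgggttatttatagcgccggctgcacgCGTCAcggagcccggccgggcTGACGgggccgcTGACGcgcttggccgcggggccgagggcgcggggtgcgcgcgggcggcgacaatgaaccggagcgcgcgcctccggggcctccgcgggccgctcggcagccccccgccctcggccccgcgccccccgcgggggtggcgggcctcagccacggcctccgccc
The window held 4 matches, 2 on each strand, none overlapping, and 0 copies of the full palindrome TGACGTCA. Of 32851 promoters of the same length 20.8% held at least 1 match and 0.231% held at least 4. The window's GC share was 81.7%, against a median of 52.7% over those promoters. A match is a stretch of letters and was not tested as a binding site.

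Of the other genes that lay lowest by this rule, Dcn encodes decorin, a small proteoglycan that binds collagen fibrils in perivascular and meningeal connective tissue (ENSMUSG00000019929, mm10, chr10:97479609-97518143, plus strand). It had 13.96 and 14.6 CPM in CAA stress, against 32.7 and 53.6 CPM in CAA mock (log2 fold change -1.59 ± 0.31, adjusted p = 0.696 in edgeR and 0.00212 in DESeq2). WT brains, at 19.2 and 11.2 CPM under stress, against 18.8 and 12.9 CPM under mock, lay nearer to CAA stress than to CAA mock. Kctd4, a protein with a BTB domain, had 28.2 and 32.6 CPM in CAA stress, against 57.6 and 62.1 CPM in CAA mock (-0.98 ± 0.20, edgeR adjusted p = 0.696, DESeq2 adjusted p = 0.0308). It lies wholly within Gtf2f2 on the opposite strand, so reads of the genes cannot be told apart without strand.

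Dsc3 and Fermt1 rested on few counts. Dsc3, a cadherin of desmosomes, had 16 counts summed over both CAA stress libraries, against 125 over both CAA mock libraries, a ratio of 0.121 after scaling to depth (95% counting interval 0.0669 to 0.204; DESeq2 adjusted p = 0.0308). Fermt1, or kindlin-1, which activates integrins in epithelia, had 5 counts summed over CAA stress, against 78 over CAA mock (ratio 0.0604, 95% counting interval 0.0191 to 0.147). These intervals cover counting error only. The edgeR adjusted p of both genes was 0.696, and their groups did not overlap.

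**Figure D2:**
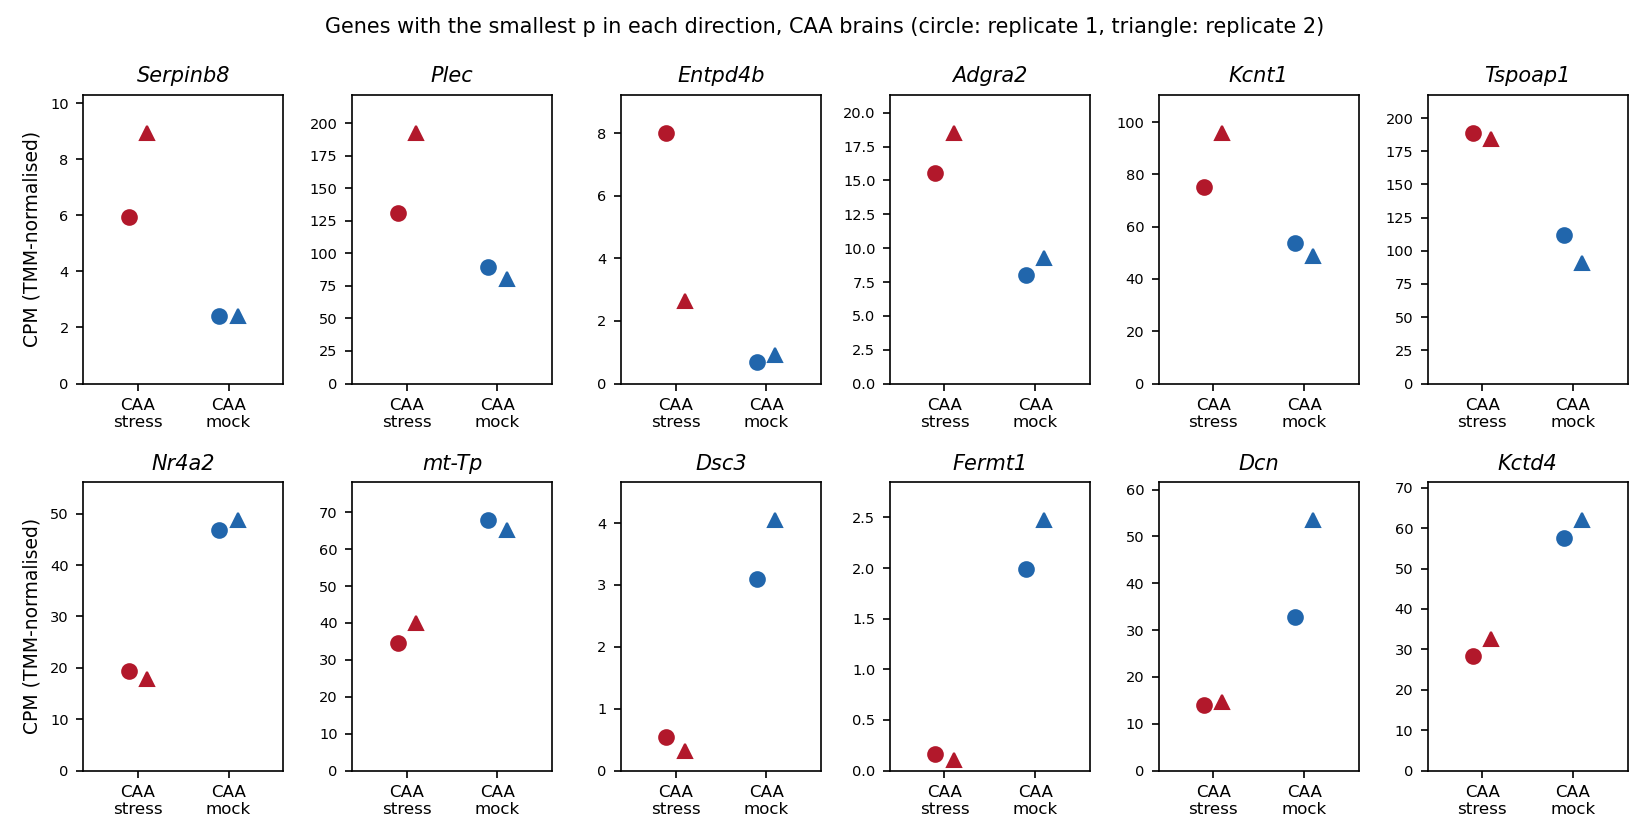
TMM-normalised CPM of the 6 genes with the smallest p in each direction (top row higher, bottom row lower in CAA stress), in CAA stress (red, left) and CAA mock (blue, right); each point is a library and each panel has its own axis from 0. Serpinb8 is at 5.94 and 8.95 CPM in CAA stress, against 2.39 and 2.42 CPM in CAA mock, and Nr4a2 at 19.3 and 17.8 CPM, against 46.7 and 48.8 CPM.

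Transfer RNAs of the mitochondrial genome, which carry amino acids to the mitochondrial ribosome, lay lower in CAA stress. Of 22 such genes 16 were tested; 15 lay lower and 1 higher, 9 had groups that did not overlap, all lower, and 5 had an unadjusted edgeR p under 0.05, all lower, where 19% and 3.27% of all genes were so. This set was formed after the value of mt-Tp was seen. Its median log2 fold change was -0.79, against 0.01 over all genes tested, and 0.03 for the same transfer RNAs in WT brains. Among its members, mt-Tc, mt-Tn and mt-Te fell in the lowest bin of GC content, described below. In that bin 10.05% of genes lay lower with an unadjusted edgeR p under 0.05. No mitochondrial transfer RNA gene passed in edgeR; DESeq2 called mt-Tp and mt-Tc. These are the tRNAs for proline and cysteine, and mt-Tn is that for asparagine. They were chosen, apart from mt-Tp, after their values were seen. The sequences, 5′ to 3′, are shown because they are short and structured, and the capitals mark the anticodon, read from the GENCODE vM21 transcripts on the GRCm38.p6 build. All 3 genes lie on the minus strand, mt-Tp at chrM:15356-15422, mt-Tc at chrM:5192-5257 and mt-Tn at chrM:5089-5159.
mt-Tp: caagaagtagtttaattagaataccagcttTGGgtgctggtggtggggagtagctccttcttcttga
mt-Tc: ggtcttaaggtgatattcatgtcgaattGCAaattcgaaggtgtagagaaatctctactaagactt
mt-Tn: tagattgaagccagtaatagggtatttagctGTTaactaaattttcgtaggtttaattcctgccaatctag
The 3 transfer RNAs are 67, 66 and 71 bases long.

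mt-Tp had 34.6 and 39.9 CPM in CAA stress, against 68.0 and 65.2 CPM in CAA mock (log2 fold change -0.84 ± 0.15, adjusted p = 0.696 in edgeR and 0.0235 in DESeq2). mt-Tc had 38.4 and 34.0 CPM in CAA stress, against 55.8 and 91.6 CPM in CAA mock (-1.03 ± 0.22, edgeR adjusted p = 0.696, DESeq2 adjusted p = 0.0308). mt-Tn had 13.7 and 14.1 CPM, against 19.9 and 37.0 CPM (-1.03 ± 0.26). The CAA stress libraries lay close together for all 3 genes, while in mt-Tc and mt-Tn CAA mock 2 lay well above CAA mock 1. Without CAA mock 2 the log2 fold change of mt-Tc was -0.63 and that of mt-Tp was -0.87. Further members, mt-Tl1 for leucine and mt-Te for glutamate, lay at -0.77 ± 0.23 and -0.83 ± 0.29. These RNAs are read from a precursor that also holds the neighbouring genes, and without strand the reads of a light-strand transfer RNA cannot be told from those of the opposite precursor. Counts of RNAs this short also depend on which fragment sizes the library kept, which the sources do not state.

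The 13 protein genes of the mitochondrial genome lay lower less uniformly: 9 lower and 4 higher, with a median of -0.35, against 0.01 over all genes tested. Groups did not overlap in 6, all lower (46.2%, against 19% of all genes), and the median was -0.17 without CAA stress 2. The complex I subunit mt-Nd1 had 9372 and 6770 CPM in CAA stress, against 11062 and 12245 CPM in CAA mock (-0.53 ± 0.19), and mt-Nd3 had 45.1 and 27.9 CPM, against 51.0 and 67.7 CPM (-0.70 ± 0.23). CAA stress 2 was the lowest library in both. With the offset for GC content described below the list's median was -0.10.

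Of 24 genes that glucocorticoids induce, 13 lay higher and 11 lower in CAA stress, with a median log2 fold change of 0.04, against 0.01 over all genes tested. In 5 higher and 2 lower members groups did not overlap, 20.8% and 8.33%, against 18.3% and 19% of all genes. None passed in edgeR. Fkbp5, a co-chaperone of the glucocorticoid receptor and a much used marker of its activity, had 62.0 and 60.2 CPM in CAA stress, against 59.1 and 44.4 CPM in CAA mock (0.24 ± 0.20, edgeR adjusted p = 0.766). Its 95% confidence interval ran from -0.19 to 0.67. Tsc22d3, which encodes the glucocorticoid-induced leucine zipper, had 179 and 91.8 CPM in CAA stress, against 123 and 184 CPM in CAA mock (-0.18 ± 0.42). The groups did not overlap in Fkbp5 and overlapped widely in Tsc22d3.

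The 2 members with the smallest p were Plin4 and Per1. Plin4, which coats lipid droplets, had 15.6 and 9.54 CPM in CAA stress, against 4.26 and 5.13 CPM in CAA mock (1.42 ± 0.47, edgeR adjusted p = 0.696). Per1 had 79.5 and 85.4 CPM, against 61.0 and 57.2 CPM (0.48 ± 0.22, edgeR adjusted p = 0.696). Sgk1, a kinase induced by the receptor, had 228 and 149 CPM in CAA stress, against 162 and 211 CPM in CAA mock (0.01 ± 0.21). The list's median took the other sign without CAA stress 1 (-0.098), with a term for sex (-0.004) and with the GC offset (-0.024).

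Of 10 tested genes of the stress hormone axis 4 lay higher and 6 lower (median -0.12, and 0.015 without CAA mock 1). Nr3c2, the mineralocorticoid receptor, had 38.5 and 41.9 CPM in CAA stress, against 51.6 and 58.0 CPM in CAA mock (-0.45 ± 0.17), while the glucocorticoid receptor gene Nr3c1, with 94.1 and 87.6 CPM against 90.1 and 105 CPM, lay at -0.11 ± 0.16. Hsd11b1, which regenerates active glucocorticoid inside cells, had 18.3 and 9.43 CPM in CAA stress, against 17.5 and 36.6 CPM in CAA mock (-0.96 ± 0.47). Crh, the releasing hormone itself, had 4.63 and 7.02 CPM, against 7.53 and 2.70 CPM. The groups overlapped in Hsd11b1, Crh and Nr3c1 and not in Nr3c2. None of the 4 passed in edgeR (adjusted p = 0.696 for Nr3c2 and Hsd11b1).

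Of 20 immediate early genes, which neurons switch on within minutes of activity, 14 lay higher and 6 lower (median 0.20, against 0.01 over all genes tested). Groups did not overlap in 3 higher and 2 lower members, 15% and 10%, below the 18.3% and 19% of all genes. The 2 lower ones were the nuclear receptors Nr4a2, above, and Nr4a3, which had 17.7 and 18.8 CPM in CAA stress, against 31.4 and 27.3 CPM in CAA mock (-0.69 ± 0.23). Nr4a3 was named after its values were seen, as were Arc and Npas4 here. Ier5, a nuclear protein of the growth factor response, lay at the other end, with 50.4 and 83.4 CPM in CAA stress, against 38.9 and 36.8 CPM in CAA mock (0.82 ± 0.23, edgeR adjusted p = 0.696). The other 2 higher ones were Arc, a regulator of synaptic AMPA receptors, at 0.77 ± 0.34, and the activity-induced transcription factor Npas4 at 0.58 ± 0.54. The list's median was -0.080 without CAA mock 2, the library with few striatal transcripts.

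Of 16 circadian clock genes, 12 lay higher and 4 lower in CAA stress (median 0.19, against 0.01 over all genes tested and -0.14 for the same genes in WT brains). Groups did not overlap in 8 higher members and 1 lower one, 50% and 6.25% of the list, against 18.3% and 19% of all genes. The repressor Per2 had 19.6 and 24.1 CPM in CAA stress, against 14.7 and 12.7 CPM in CAA mock (0.68 ± 0.20), and its relative Per3 had 25.6 and 25.3 CPM, against 13.7 and 19.04 CPM (0.63 ± 0.22). Per3 shares 41014 bases with Camta1 on the same strand. Both had an edgeR adjusted p of 0.696. Dbp, a clock output factor named after its values were seen, had 110.0 and 63.2 CPM in CAA stress, against 49.9 and 46.1 CPM in CAA mock (0.85 ± 0.39). The median stayed above 0 in each alternative run, between 0.10 and 0.25. The sources do not state the time of day of collection, and its part in these values was not tested.

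**Figure D3:**
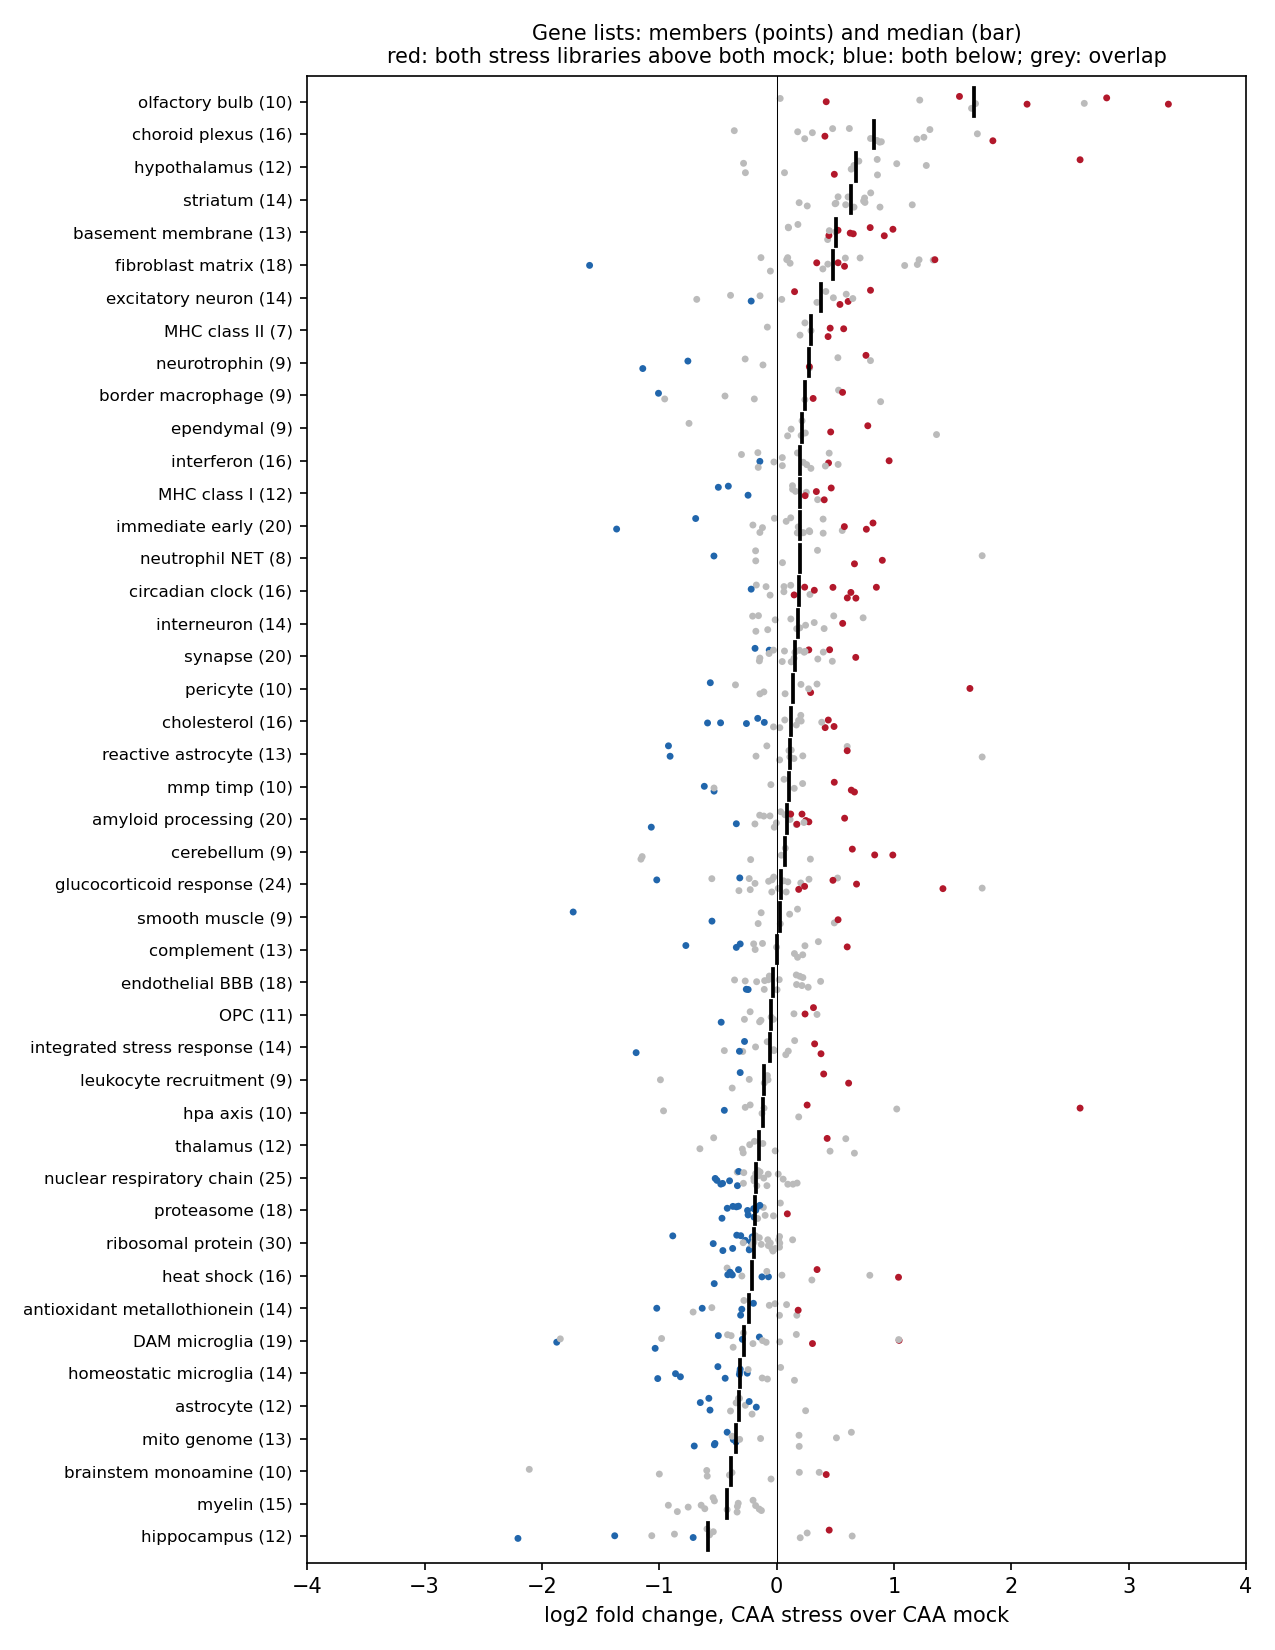
Log2 fold change of CAA stress over CAA mock for the tested members (points) of 45 gene lists with at least 5 such members (number in brackets), sorted by median (bar). Red points have both CAA stress libraries above both CAA mock libraries, blue points have both below, and grey points overlap; no point passed in edgeR. Basement membrane genes lie at or above 0.10 and myelin genes at or below -0.13.

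Most neutrophil transcripts were near the limit of detection in every library. Of 20 genes of neutrophil granules and extracellular traps 12 had too few counts to be tested, at most 9 in a CAA library. The other 8 were split, 5 higher and 3 lower, with a median of 0.20 that was -0.12 without CAA stress 1. Their summed level was 59.1 and 45.4 CPM in CAA stress, against 46.3 and 67.5 CPM in CAA mock, most of it from Padi2, an enzyme that oligodendrocytes also express. The calprotectin gene S100a8 had 32 and 8 counts in CAA stress, against 2 and 28 counts in CAA mock, and its partner S100a9 had 31 and 9 counts, against 1 and 36. The groups overlapped, and the log2 fold changes were 0.35 ± 1.05 for S100a8 and 0.05 ± 1.05 for S100a9 (edgeR adjusted p = 0.943 and 0.992). Mpo, the myeloperoxidase of neutrophil granules, had 2 and 3 counts in CAA stress, against 1 and 6 in CAA mock. Padi4, the enzyme that citrullinates histones in trap formation, had 2 and 0 counts, against 0 and 0. Elane, neutrophil elastase, had 3 and 0 counts, against 0 and 1. No difference was detected: S100a8 and S100a9 varied widely between replicates, and Mpo and Padi4 had too few counts to be tested.

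Lcn2, an iron-binding protein of neutrophils and of reactive astrocytes, had 67 and 15 counts in CAA stress, against 6 and 17 counts in CAA mock (1.75 ± 0.93). Csf3r, the receptor for granulocyte colony-stimulating factor, had 71 and 112 counts, against 133 and 116 (-0.53 ± 0.31). Of 12 lymphocyte genes 2 were tested and the others had at most 3 counts in a CAA library. Of 18 genes of leukocyte recruitment 9 were tested, 2 higher and 7 lower, with a median of -0.10 that was 0.079 without CAA mock 2. Among them the chemokine Cx3cl1, which neurons make and microglia sense, had 482 and 517 CPM in CAA stress, against 447 and 309 CPM in CAA mock (0.40 ± 0.19), and the integrin Itgam lay at -0.31 ± 0.24. None of these genes passed in edgeR.

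Microglial genes mostly lay lower in CAA stress. Of 14 homeostatic microglial genes 12 lay lower and 2 higher, with a median of -0.31, against 0.01 over all genes tested and -0.22 in WT brains. There was no overlap between groups in 9 members, all lower (64.3%, against 19% of all genes). The purine receptor P2ry13 had 6.16 and 4.34 CPM in CAA stress, against 9.87 and 11.3 CPM in CAA mock (-1.01 ± 0.28), and the lipid receptor Gpr34 had 9.32 and 5.89 CPM, against 13.9 and 13.7 CPM (-0.86 ± 0.27). P2ry12, by which microglia sense released nucleotides, named after its values were seen, had 24.2 and 16.6 CPM in CAA stress, against 40.4 and 31.4 CPM in CAA mock (-0.82 ± 0.28). The defining marker Tmem119 overlapped, at 32.3 and 22.7 CPM, against 37.4 and 20.6 CPM (-0.08 ± 0.30). The edgeR adjusted p of P2ry13 and Gpr34 was 0.696. Both lie within a larger gene on the opposite strand, P2ry13 in Med12l and Gpr34 in Cask.

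Of 19 tested genes of disease-associated microglia, which microglia around amyloid express, 14 lay lower and 5 higher (median -0.28, against 0.01 in the same genes in WT brains). Groups did not overlap in 5 lower and 2 higher members, 26.3% and 10.5%, against 19% and 18.3% of all genes. The chemokine Ccl6 had 1.36 and 3.0001 CPM in CAA stress, against 3.10 and 5.86 CPM in CAA mock (-1.03 ± 0.48), and the light chain B2m had 86.9 and 60.9 CPM, against 90.5 and 118 CPM (-0.50 ± 0.23). Clec7a, a pattern receptor named after its values were seen, had 0.109 and 0.750 CPM in CAA stress, against 0.993 and 2.20 CPM in CAA mock (-1.87 ± 0.93). Ch25h and Gpnmb went the other way, at 1.04 ± 0.52, with groups that did not overlap, and 1.04 ± 0.53. Trem2 lay near 0, at -0.09 ± 0.21. These genes were also named after their values were seen. None passed in edgeR. CAA mock 2 was the highest library in Ccl6, B2m and Clec7a. Without CAA stress 2 the list's median was -0.02, and without CAA mock 2 it was -0.14. The homeostatic median was -0.19 without CAA stress 2. The medians of both microglial lists stayed below 0 in each alternative run.

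Gfap, the intermediate filament of astrocytes, had 317 and 251 CPM in CAA stress libraries, against 390 and 676 CPM in CAA mock libraries (log2 fold change -0.91 ± 0.30, edgeR adjusted p = 0.696). The groups did not overlap, but the 2 CAA mock libraries lay further apart than the nearest libraries of the groups, and without CAA mock 2 the log2 fold change was -0.46. In WT brains, Gfap had 162 and 189 CPM under stress, against 323 and 197 CPM under mock (-0.57 ± 0.30). Of 12 general astrocyte genes 11 lay lower and 1 higher (median -0.32, against 0.01 over all genes tested and -0.28 in WT brains), and 5, all lower, had groups that did not overlap (41.7%, against 19% of all genes). The water channel Aqp4 had 174 and 135 CPM in CAA stress, against 186 and 300 CPM in CAA mock (-0.65 ± 0.23), and the gap junction gene Gja1 had 265 and 177 CPM, against 273 and 386 CPM (-0.58 ± 0.23). In both, CAA stress 1 lay close to CAA mock 1, and the list's median was -0.05 without CAA stress 2. Of 13 reactive astrocyte genes 9 lay higher and 4 lower (median 0.11, and -0.098 without CAA stress 2 or -0.15 without CAA mock 1). Gfap and Cd44, a receptor for hyaluronan at -0.92 ± 0.34, had the smallest p of this list and lay lower, unlike most of it. Lcn2, given above, was its highest member, at 1.75 ± 0.93. None of these astrocyte genes passed in edgeR.

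All 15 myelin genes lay lower in CAA stress (median -0.42, against 0.01 over all genes tested and -0.32 in WT brains), but the groups overlapped in each of the 15. Ugt8a, which makes the myelin lipid galactosylceramide, had 68.0 and 35.8 CPM in CAA stress, against 67.8 and 119 CPM in CAA mock (-0.85 ± 0.38). Aspa, the aspartoacylase of oligodendrocytes, had 27.6 and 13.7 CPM, against 25.1 and 53.3 CPM (-0.92 ± 0.42). The order of the libraries was the same in both: CAA mock 2 highest, CAA stress 1 and CAA mock 1 close together, CAA stress 2 lowest. The list's median was -0.05 without CAA stress 2 and -0.086 without CAA mock 2.

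All 13 basement membrane genes, which encode the laminins, collagens and proteoglycans of the sheet on which vessel cells and astrocyte endfeet rest, lay higher in CAA stress. Their median log2 fold change was 0.50, against 0.01 over all genes tested and 0.04 for the same genes in WT brains. In 7 members, all higher, there was no overlap between groups (53.8%, against 18.3% of all genes), and 4 had an unadjusted edgeR p under 0.05 (30.8%, against 3.68% of all genes), but none passed in edgeR. Lamb2, the laminin beta 2 chain of vascular basement membrane, had 27.0 and 34.5 CPM in CAA stress, against 14.5 and 16.4 CPM in CAA mock (0.99 ± 0.25, edgeR adjusted p = 0.696). Agrn, the heparan sulfate proteoglycan agrin, had 103 and 128 CPM in CAA stress, against 74.3 and 72.2 CPM in CAA mock (0.65 ± 0.16, edgeR adjusted p = 0.696). In both genes the lower CAA stress library lay well above the higher CAA mock library.

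Named after their values were seen, the collagen gene Col4a2 had 29.5 and 44.5 CPM in CAA stress, against 22.4 and 20.1 CPM in CAA mock (0.80 ± 0.22), and the perlecan gene Hspg2 had 5.72 and 11.8 CPM, against 3.68 and 5.58 CPM (0.92 ± 0.40). The smallest values of the list were Nid2 and Lamb1, both at 0.10. CAA stress 2 was the highest of the 4 libraries in Lamb2, Agrn, Col4a2 and Hspg2. The list's median was 0.49 with the GC offset and stayed above 0 in each alternative run, between 0.19 and 0.80. Leaving out CAA mock 1 gave 0.20, CAA stress 2 gave 0.28 and CAA mock 2 gave 0.80. In WT brains Lamb2 lay at -0.18 ± 0.25 and Agrn at -0.18 ± 0.16; the difference between the effects in CAA and WT brains did not pass for either (edgeR adjusted p = 0.995).

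Of 18 fibroblast and matrix genes 15 lay higher and 3 lower (median 0.48, against 0.01 over all genes tested), and groups did not overlap in 4 higher members and 1 lower one, 22.2% and 5.56%, against 18.3% and 19% of all genes. Leaving out CAA mock 1 gave a median of 0.16, CAA stress 2 one of 0.19 and CAA mock 2 one of 1.16. The lower one was Dcn, above. Col1a2, a chain of type I collagen, had 17.4 and 34.0 CPM in CAA stress, against 5.90 and 14.3 CPM in CAA mock (1.35 ± 0.42, edgeR adjusted p = 0.696). Fn1, the fibronectin gene, named after its values were seen, had 33.7 and 82.7 CPM, against 15.7 and 34.4 CPM (1.21 ± 0.55), with overlapping groups. CAA stress 2 held the highest value of both genes. Dcn thus lay apart from the collagens of the same list in direction.

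Lists of the cells of the vessel wall had medians nearer to 0. Of 18 endothelial barrier genes 9 lay higher and 9 lower (median -0.03, and 0.20 without CAA stress 2 or 0.29 without CAA mock 2), and the tight junction gene Cldn5 had 19.9 and 16.8 CPM in CAA stress, against 22.8 and 21.0 CPM in CAA mock (-0.26 ± 0.19). Of 9 smooth muscle genes 5 lay higher and 4 lower (median 0.03), a sign that turned with the GC offset (-0.14). The contractile myosin Myh11 had 9.05 and 8.84 CPM in CAA stress, against 4.03 and 8.39 CPM in CAA mock (0.52 ± 0.32). Of 10 pericyte genes 6 lay higher and 4 lower (median 0.14, and -0.026 without CAA mock 1), with the peptidase Anpep at 1.65 ± 0.61. Of 10 matrix metalloproteinases and inhibitors 6 lay higher and 4 lower (median 0.11, and -0.012 without CAA stress 1), among them Mmp17 with 195 and 268 CPM in CAA stress, against 187 and 111 CPM in CAA mock (0.64 ± 0.23). None of these genes passed in edgeR.

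Of 20 genes of amyloid-beta production and clearance 12 lay higher and 8 lower in CAA stress (median 0.09, against 0.01 over all genes tested). The amyloid precursor gene App had 1222 and 1337 CPM in CAA stress, against 1072 and 1043 CPM in CAA mock (0.28 ± 0.15, edgeR adjusted p = 0.696), with groups that did not overlap. The neuronal surface gene Thy1, whose promoter often drives transgenes in mouse neurons, had 729 and 1034 CPM, against 791 and 709 CPM (0.23 ± 0.18). Reads of a transgene built with either sequence would be counted in the same rows, and the strain is not given. Ide, the insulin-degrading enzyme, which also degrades amyloid-beta, had 42.1 and 43.4 CPM in CAA stress, against 68.1 and 111 CPM in CAA mock (-1.07 ± 0.25, edgeR adjusted p = 0.696, DESeq2 adjusted p = 0.0486). Without CAA mock 2 its log2 fold change was -0.67. Lrp1, an endocytic receptor that clears amyloid-beta at vessels, had 343 and 424 CPM in CAA stress, against 246 and 267 CPM in CAA mock (0.58 ± 0.19, edgeR adjusted p = 0.696).

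Among neuronal lists, 10 of 14 excitatory forebrain genes lay higher and 4 lower (median 0.38, against 0.01 over all genes tested and -0.25 in WT brains), and groups did not overlap in 4 higher and 1 lower, 28.6% and 7.14%, against 18.3% and 19% of all genes. Leaving out CAA stress 2 gave a median of 0.066, CAA mock 2 one of 0.21 and CAA stress 1 one of 0.66. Cux2, a transcription factor of upper cortical layers, had 74.7 and 99.9 CPM in CAA stress, against 53.9 and 46.4 CPM in CAA mock (0.80 ± 0.22). Nrgn, the postsynaptic calmodulin-binding protein neurogranin, had 1021 and 1181 CPM, against 838 and 604 CPM (0.61 ± 0.20). CAA stress 2 was highest and CAA mock 2 lowest in both. Of 20 synaptic genes 14 lay higher and 6 lower (median 0.15, and -0.010 without CAA mock 2); the active zone scaffold Bsn had 331 and 465 CPM in CAA stress, against 295 and 204 CPM in CAA mock (0.67 ± 0.22). Of 14 interneuron genes 9 lay higher and 5 lower (median 0.18, 0.014 without CAA stress 2 and 0.38 without CAA stress 1), with Lamp5 at 0.56 ± 0.23. All of these had an edgeR adjusted p of 0.696, and the region markers given above, whose part in these values was not tested, differed between the same libraries.

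Housekeeping genes of protein synthesis and turnover lay slightly lower as lists. Of 18 proteasome subunits 16 lay lower and 2 higher (median -0.18, against 0.01 over all genes tested and 0.00 in WT brains), and groups did not overlap in 12 lower and 1 higher, 66.7% and 5.56%, against 19% and 18.3% of all genes. The core subunits Psma3, with 64.0 and 57.1 CPM in CAA stress, against 81.9 and 80.1 CPM in CAA mock, and Psma4 lay at -0.42 ± 0.15 and -0.37 ± 0.15. Of 30 cytosolic ribosomal protein genes 25 lay lower and 5 higher (median -0.19), and 11, all lower, had groups that did not overlap (36.7%, against 19% of all genes). Rps27 had 114 and 83.0 CPM in CAA stress, against 155 and 208 CPM in CAA mock (-0.88 ± 0.21). Ribosomal protein genes have many processed copies in the genome, so how their reads were assigned bears on these values. The ribosomal median was 0.041 without CAA stress 2.

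Of 25 nuclear genes of the respiratory chain 20 lay lower and 5 higher (median -0.18), with the complex I subunit Ndufv2 at 160 and 130 CPM in CAA stress, against 196 and 202 CPM in CAA mock (-0.46 ± 0.16); without CAA stress 2 the median was 0.064. Of 16 heat shock genes 11 lay lower and 5 higher (median -0.21), and groups did not overlap in 8 lower and 2 higher, 50% and 12.5%, against 19% and 18.3% of all genes. The median was -0.12 without CAA mock 2. The cytosolic chaperone Hsp90aa1 had 1458 and 1163 CPM in CAA stress, against 1727 and 2061 CPM in CAA mock (-0.53 ± 0.19), while the inducible Hspa1a had 7.52 and 11.1 CPM, against 5.02 and 4.06 CPM (1.04 ± 0.30). The 2 chaperones thus lay in opposite directions. None of the genes in these 4 lists passed in edgeR.

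Several lists of region markers had large medians that rested on single libraries. All 14 striatal markers lay higher (median 0.63) with overlapping groups in each. The dopamine receptor Drd2 had 42.1 and 18.8 CPM in CAA stress, against 30.9 and 7.66 CPM in CAA mock (0.66 ± 1.34), and without CAA mock 2 the list's median was -0.10. All 10 olfactory bulb markers lay higher (median 1.68, and 0.31 without CAA stress 2), and 5 of them, 50%, had groups that did not overlap, against 18.3% of all genes. Omp, of mature olfactory neurons, had 0.818 and 6.27 CPM, against 0.350 and 0.338 CPM (3.34 ± 1.92), and Eomes, of bulb projection neurons, had 0.818 and 8.14 CPM, against 0.759 and 0.507 CPM (2.81 ± 1.72). Of 16 choroid plexus markers 15 lay higher (median 0.83). The thyroxine carrier Ttr had 368 and 3.70 CPM in CAA stress, against 160 and 2.65 CPM in CAA mock (1.20 ± 3.04), so that 1 library of each group held nearly all of its reads. Without CAA stress 1 the choroid plexus median was -1.35. Of 12 hippocampal markers 8 lay lower and 4 higher (median -0.58, and 0.21 without CAA mock 2). Groups did not overlap in 3 lower members and 1 higher one, 25% and 8.33%, against 19% and 18.3% of all genes. At an unadjusted edgeR p under 0.05 there were 3, all lower (25%, against 3.27%), and none passed. Spink8 had 1.64 and 1.07 CPM in CAA stress, against 4.96 and 7.55 CPM in CAA mock (-2.20 ± 0.75). Fibcd1 had 15.05 and 11.2 CPM, against 32.1 and 36.2 CPM (-1.38 ± 0.47). In the alternatives they stayed lower, at -3.05 to -1.69 and -1.90 to -1.13. Both were picked by small p and their groups did not overlap, so leaving out libraries could hardly reverse them. Their kept direction is therefore no support for them.

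Fold changes of CAA stress over CAA mock varied with the base composition of the transcripts. GC content, the share of G and C bases in a gene's longest GENCODE vM21 transcript, was available for 17163 of the 17182 genes tested. Across genes, which are not independent replicates, its Spearman correlation with the log2 fold change was 0.386 in CAA brains, and -0.122 in WT brains. The median log2 fold change ran through -0.21, -0.08, 0.01, 0.09 and 0.20 over 5 equal bins of genes, ordered from the lowest GC content to the highest. In the lowest bin 0.699% of genes lay higher and 10.05% lower with an unadjusted edgeR p under 0.05, and in the highest bin 8.80% lay higher and 0.466% lower. The highest bin lay at median levels of 0.197 and 0.184 in CAA stress 1 and 2, against 0.108 and -0.134 in CAA mock 1 and 2, on the log2 scale relative to the mean of the 8 libraries. The CAA stress libraries lay together, CAA mock 1 lay near them, and CAA mock 2 on the other side of 0.

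**Figure D4:**
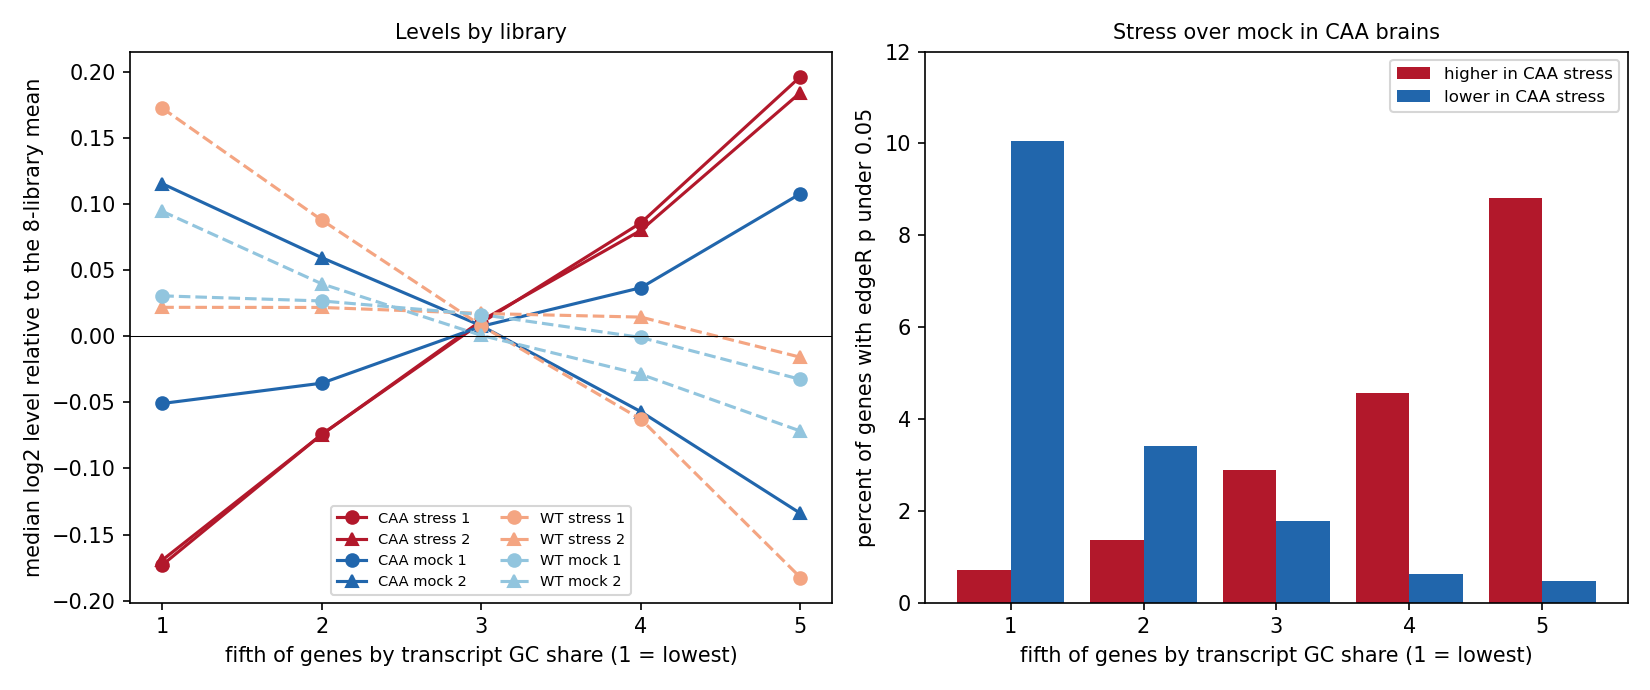
Left, median log2 level relative to the 8-library mean, by bin of genes in transcript GC content (bin 1 lowest, bin 5 highest), for each library; right, percent of genes with an unadjusted edgeR p under 0.05 in CAA stress over CAA mock, by the same bins. The CAA stress libraries reach 0.197 and 0.184 in the highest bin, where 8.80% of genes lie higher and 0.466% lower.

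With an offset for GC content in the fit, an alternative chosen after seeing the data, 0 genes passed in edgeR and 833 had an unadjusted p under 0.05 (495 higher, 338 lower), against 1193 without it. Chance gives 859.1, so the count lay above that number without the offset and below it with the offset. The log2 fold changes became -1.33 for Nr4a2, -1.32 for Dcn, 1.81 for Serpinb8, 0.66 for Plec, 0.74 for Adgra2, -0.73 for mt-Tp and -0.74 for mt-Tc. The list medians became 0.49 for basement membrane, -0.28 for homeostatic microglia, 0.17 for the clock, -0.44 for myelin and -0.19 for the proteasome. Other medians moved further: from 0.38 to 0.17 for excitatory forebrain genes, 0.20 to 0.06 for immediate early genes, -0.21 to -0.12 for heat shock and 0.09 to 0.03 for amyloid-beta genes. With the offset 12 basement membrane genes lay higher and 1 lower. Groups did not overlap in 5 of them, all higher (38.5%, against 16.2% of all genes). Whether the gradient comes from the preparation of the libraries or from the brains was not tested.

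Set beside WT brains, stress in CAA brains gave more genes with a small p, but no gene passed in edgeR for a different response. In WT brains 0 genes passed in edgeR and 273 genes (1.59%) had an unadjusted edgeR p under 0.05, where chance gives 859.1. The count for the interaction, below, also lay under that number. With counts below chance, 1193 against 273 is no measure of a larger response in CAA brains. WT mock 1 stood apart among the WT libraries: it had 4575 Xist counts and 0 Y-linked counts, against 2667 to 2833 Y-linked counts in the other 3, and lay at -2.11 in striatal and -2.51 in hypothalamic markers. The WT fold changes, the shared signs and the interaction below rest in part on it. Without WT mock 1, edgeR called 1 gene in WT brains and 0 for the interaction, and 207 and 337 genes had an unadjusted p under 0.05. Of the 1193 genes of the CAA comparison, 624 (52.3%) had the same sign in WT brains, as did 52.3% of all genes tested. The difference of the 2 effects was tested as an interaction: 0 genes passed in edgeR (smallest adjusted p = 0.995), 595 (3.46%) had an unadjusted p under 0.05, and DESeq2 called 1. That gene was Xist (DESeq2 adjusted p = 0.0303), whose counts came almost wholly from CAA stress 1 and WT mock 1, the libraries that were female by these counts. In edgeR the genes with the smallest p for the difference were mt-Tp, Fabp7 and the predicted gene Gm12191.

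Fabp7, a fatty acid-binding protein of astrocytes and radial glia, had 42.5 and 27.3 CPM in CAA stress, against 67.3 and 74.4 CPM in CAA mock (log2 fold change -1.02 ± 0.24, DESeq2 adjusted p = 0.0493). In WT brains it had 76.1 and 58.0 CPM under stress, against 37.8 and 52.1 CPM under mock (0.58 ± 0.24). The libraries did not overlap in either genotype, and the signs were opposite (edgeR adjusted p = 0.995 for the difference). Gm12191 had 3.87 and 1.98 CPM in CAA stress, against 5.26 and 8.73 CPM in CAA mock (-1.26 ± 0.42), and 10.7 and 10.7 CPM in WT stress, against 2.53 and 5.28 CPM in WT mock (1.46 ± 0.42). It shares 348 bases with Cnot6 on the same strand.

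**Figure D5:**
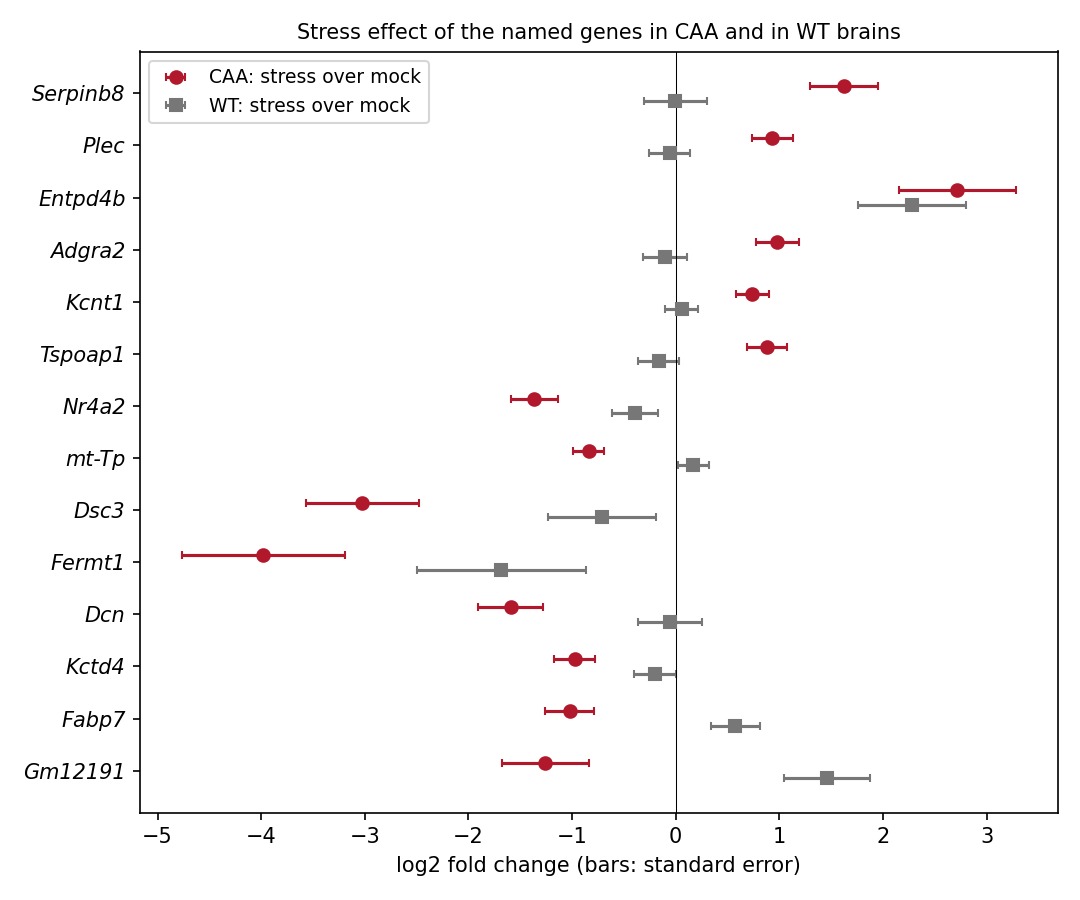
Log2 fold change of stress over mock with its standard error, in CAA brains (red circles) and in WT brains (grey squares), for the 6 genes per direction named by smallest p in CAA brains and 2 more with the smallest p for the difference. Serpinb8 is at 1.63 in CAA and -0.005 in WT brains, Fabp7 at -1.02 and 0.58, and Entpd4b at 2.72 and 2.28; no difference passed in edgeR.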

How the data were processed

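Per the submitters' processing notes, the authors used HISAT2 2.0.5 and featureCounts 1.5.0-p3 with the mm10 build; the annotation release, multi-mapping rule and strandedness were not stated there. Per the labels' protocols, RNA was extracted with RNeasy columns and 5 ug of total RNA went into each Illumina library. The authors deposited raw counts per gene, and a second table of FPKM values made from them, used here as an alternative (limma 3.58.1 on log2(FPKM + 1) and log2(FPKM + 0.1)). Every count had a gene name. No 2 libraries agreed within sampling noise.

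Groups follow the titles. Counts were tested in R 4.3.3 with edgeR 4.0.16: filterByExpr (minimum count 10, minimum total 15), TMM scaling, a robust quasi-likelihood fit of 4 group means to all 8 libraries (4 residual degrees of freedom, common BCV, the coefficient of variation between replicates, 0.206), two-sided, adjusted by Benjamini-Hochberg, threshold 0.05. Errors are SEs of the log2 fold change. CPM are TMM-normalised. DESeq2 1.42.0 was an alternative. The fit was tested on simulated data. An exact permutation test of 2 against 2 libraries cannot go below p = 0.333.

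The comparison, the 48 gene lists and the naming rule were chosen with earlier results of these data known; lists were counted, not tested. Of the listed genes, 1 is not reported here. The rule names, per direction, the 6 genes with the smallest p among those without overlap, with at least 1 CPM and no clone-style symbol, since none passed; the 2 smallest p of each list; the 3 smallest of the interaction; and Fkbp5, Tsc22d3, Gfap, S100a8, S100a9, Mpo, Padi4, Ttr, Drd2, Xist, Ddx3y, App and Thy1. Other named genes, among them Mrc2, Ryr1, Sgk1, Crh, Nr3c1, Nid2, Lamb1, Tmem119, Cldn5, Snap25, Elane and those so marked, were chosen after their values were seen. Replicate numbers did not pair the libraries (correlation of deviations -0.095 between CAA stress and CAA mock). The alternatives were another scaling, no filter, DESeq2, a replicate block, only the CAA libraries, a sex term, male libraries, a fit leaving out libraries with few striatal transcripts, FPKM and each library left out; offsets for GC content and for GC content with length were added after the data were seen.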

Additional observations from a re-analysis of the deposited data

Results flagged for a closer look

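Apart from Xist, in 15 of the 121 named genes the CAA libraries and the WT libraries both separated stress from mock, in opposite directions. This flagged them as differing between the genotypes. Xist also met this and follows the sex of CAA stress 1 and WT mock 1. Many named genes were chosen by small p or by groups without overlap in CAA brains. There, 18.3% of all genes lay higher and 19% lower without overlap. The share of all genes that met the flag was not counted. The interaction, the log2 fold change in CAA minus that in WT brains, was tested and none of the 15 passed (edgeR adjusted p = 0.995 for each). It was above 0 for Adgra2 at 1.09, Ier5 at 1.16, Agrn at 0.83, Nrgn at 0.91, Per2 at 1.04, Mmp16 at 0.67, Stab1 at 0.70 and H2-T23 at 0.82. It was below 0 for mt-Tp at -1.01, Fabp7 at -1.60, Gm12191 at -2.71, C3ar1 at -1.40, Ccl6 at -1.36, Lhfpl3 at -0.86 and Tagln at -2.77. Stab1 marks macrophages at the borders of the brain, C3ar1 is the receptor for a complement fragment, Lhfpl3 marks oligodendrocyte precursors and Tagln is a smooth muscle gene with 4 counts summed over CAA stress, against 13 over CAA mock. In WT brains Adgra2 had 10.4 and 10.2 CPM under stress, against 11.4 and 10.7 CPM under mock, and Agrn had 79.3 and 80.6 CPM, against 99.0 and 81.6 CPM. In the same brains mt-Tp had 52.4 and 53.0 CPM under stress, against 48.2 and 45.6 CPM under mock.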

How the results depend on the processing

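The count of genes called for stress in CAA brains, 0 in edgeR, was 112 without the filter on low counts (70 higher, 42 lower), 14 with DESeq2, 8 with the male libraries only (all higher, Omp and Eomes among them), 2 with a term for sex, 1 without the libraries low in striatal markers, and 0 in each of the other settings. Leaving out 1 library each gave 0 to 0. At an unadjusted p under 0.05 that ran from 434 genes without CAA stress 2 to 2220 without CAA stress 1, with 2079 without CAA mock 1 and 608 without CAA mock 2, against 1193 with all libraries. For WT brains the count, 0, was 11 without the filter, 1 with male libraries, 1 without the libraries low in striatal markers and 0 to 2 with 1 library left out. For the interaction, 0, it was 17 without the filter, 1 with DESeq2, 1 without the libraries low in striatal markers and 0 to 1 with 1 library left out. The replicate block gave 0 calls for stress in CAA brains (949 genes with an unadjusted p under 0.05), and the numbers shared by the libraries did not pair them (correlations from -0.32 to 0.17). The 12 genes named by smallest p, 6 per direction, kept their direction in each of the 20 alternatives, among them Nr4a2 (-1.41 to -1.31 with 1 library left out), Dcn (-1.91 to -1.20) and Entpd4b (1.71 to 3.31). The naming rule required groups that did not overlap, so leaving out libraries could hardly reverse these genes. Their kept direction is therefore no support for them. Of 2416 values of 121 named genes 41, of 15 genes, changed sign; the cause was not tested. With a term for sex and with male libraries only, S100a8 was at -1.02 and -0.97, S100a9 at -0.39 and -1.10, Ttr at -3.44 and -4.45, Ramp3 at -0.18 and -0.48, Kcnj13 at -0.48 and -0.078, and the hemoglobin gene Hba-a1 at -0.70 and -1.52 (and -0.093 in limma on log2(FPKM + 0.1)); male libraries gave -0.12 for Pomc and -0.027 for Drd2. Without the libraries low in striatal markers Tsc22d3 was at 0.13, Drd2 at -0.023, En2 at 1.25, Slc6a5 at 1.66, Slc18a2 at 0.49 and Adcy5 at -0.05. The offset for GC content and length gave -0.069 for Cspg4. With 1 library left out the ranges were -0.73 to 0.22 for Tsc22d3, -0.96 to 3.14 for S100a8, -1.10 to 4.06 for S100a9, -4.45 to 6.13 for Ttr, -0.027 to 1.99 for Drd2, -0.042 to 0.47 for Thy1, -0.48 to 1.21 for Ramp3, -0.078 to 2.95 for Kcnj13, -0.12 to 1.66 for Pomc, -2.76 to 1.25 for En2, -3.05 to 1.66 for Slc6a5, -1.73 to 0.49 for Slc18a2, -1.52 to 1.21 for Hba-a1 and -0.046 to 1.38 for Adcy5. Of the medians of 48 lists 18 kept their sign in each alternative and 30 did not. With 2 libraries a group the confidence interval reached 0.49 to either side at the median gene.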

Other observations

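Gapdh, a glycolytic enzyme often used as a reference gene and chosen here after its values were seen, had 7.31 and 5.52 CPM in CAA stress, against 92.5 and 21.5 CPM in CAA mock, and 2.57 and 4.02 CPM in WT stress, against 102 and 2.13 CPM in WT mock. These levels are low for a gene that every cell uses, and the gene has many processed copies in the mouse genome. With all libraries its log2 fold change in CAA brains was -3.15 ± 1.86. Without the libraries low in striatal markers it was -3.85, but there CAA mock 1 was the only CAA mock library, and it held the highest Gapdh level of the CAA libraries. How the counting treated reads with several matches was not tested.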
